A study of Mus musculus with 62 samples.

Results

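RNA sequencing of visceral adipose tissue (VAT) was compared between 4 *Fam13a* knockout (KO) libraries and 4 wild-type (WT) libraries of male mice on chow. These 8 libraries were chosen by their labels alone, out of 62 in the series, and all 48795 genes of the table were examined in them. The mice were on a C57BL6 background. The KO mice came from embryonic stem cells of a public knockout repository in which exon 5 of *Fam13a* lies between loxP sites, and carried the deletion in the whole body rather than in adipocytes alone. Both genotypes ate standard rodent chow, and VAT was the gonadal fat, which in males lies against the epididymis. The sources used here do not tie an age to the chow-fed mice whose RNA was sequenced. The names of the libraries do not say whether each came from its own animal, so p-values measure the spread between these libraries. Libraries are called KO 1 to KO 4 and WT 1 to WT 4 in accession order.

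*Fam13a* encodes an intracellular protein that has been linked to beta-catenin signalling. White adipocytes store triglyceride, release it by lipolysis and secrete hormones such as leptin and adiponectin. Gonadal fat also holds preadipocytes, vessels, immune cells and a mesothelial surface, and in a male its dissection plane runs along the epididymis, whose epithelium secretes lipocalins, beta-defensins and protease inhibitors into the duct that carries sperm.

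Small noncoding RNAs led the list of genes with the smallest p-values, and the sequences of 3 of them are given first because the comparison turns on them. The letters of these RNAs were read from GENCODE M21 transcripts (GRCm38). *Rny3* lies on the plus strand of chr6:47781624-47781725 and *Rny1* on the minus strand of chr6:47788069-47788180. Both are Y RNAs, short RNAs of the Ro ribonucleoprotein transcribed by RNA polymerase III, and the capitals mark the run of T at which that polymerase stops. *Snord15a* lies on the minus strand of chr7:99482785-99482932 within the ribosomal protein gene *Rps3* and guides the 2′-O-methylation of ribosomal RNA. Its capitals mark a C box (TGATGA) and a D box (CTGA), the short motifs that its class of small nucleolar RNA (snoRNA) shares.
Rny3: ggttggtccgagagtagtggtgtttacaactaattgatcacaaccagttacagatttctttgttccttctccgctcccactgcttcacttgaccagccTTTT
Rny1: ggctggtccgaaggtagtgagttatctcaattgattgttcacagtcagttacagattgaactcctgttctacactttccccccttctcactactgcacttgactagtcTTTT
Snord15a: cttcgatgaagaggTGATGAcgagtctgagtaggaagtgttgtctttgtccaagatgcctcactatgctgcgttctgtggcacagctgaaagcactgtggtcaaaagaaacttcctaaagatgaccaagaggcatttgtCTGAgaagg

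The gene with the smallest p-value, *Gm28438*, is an unprocessed pseudogene on the minus strand of chr1:24612775-24613119 and a copy of *mt-Nd3*, the mitochondrial gene of a complex I subunit at chrM:9459-9806. Their first 30 bases are shown because the copies differ there, with the base that differs in capitals. Over the 345 bases of *Gm28438*, 344 were identical to *mt-Nd3*, and the substitution was T3C, with the base of *mt-Nd3* first and positions counted from 1 at the first base of *mt-Nd3* (chrM position 9461).
mt-Nd3: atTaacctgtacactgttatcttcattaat
Gm28438: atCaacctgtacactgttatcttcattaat

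Library totals over all genes ran from 8662690 to 24931889 counts. All levels are CPM, counts scaled to a common, TMM-normalized library size, and 3 counts, the floor of detection used here, equalled 0.111 to 0.458 CPM. All 8 libraries were sequenced on lane 1 of the same flow cell. Nuclear ribosomal RNA took between 0.0229% and 16.8% of the counts in KO and between 0.0245% and 25.7% in WT, and mitochondrial genes between 19.9% and 29.1%. The rank correlation between libraries across genes, which share depth and base composition, ran from 0.881 between KO 1 and KO 4 to 0.983 between WT 1 and WT 3. KO 1, WT 2 and KO 4 stood apart by transcripts of the epididymis or of sperm cells, described below. Without them 1129 of 16400 tested genes were higher and 1028 lower in KO at an unadjusted p under 0.05, and the counts of the lists that moved most are given with and without them.

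*Fam13a* itself, on the minus strand of chr6:58932090-59024549, was measured at 64.0, 47.1, 152 and 348 CPM in the KO libraries and at 792, 306, 920 and 412 CPM in the WT libraries. KO 1, KO 2 and KO 3 lay below every WT library, whereas KO 4 lay above WT 2, so the ranges overlapped. The log2 fold change was -1.99 (SE 0.66), with an adjusted p of 0.73 in edgeR's quasi-likelihood test. On the log2 CPM of the 8 libraries, an exact two-sided permutation test gave p = 0.0571, where 0.0286 is the smallest p that 4 against 4 libraries allow. The counts cover the whole gene, of which the KO removes 1 exon, and overlap the antisense gene *Gm45061*, so they do not measure intact transcript alone. Of 16 tested genes within 2 Mb of *Fam13a*, the gene itself included, none passed the test. In SAT on chow *Fam13a* was at 99.8 to 220 CPM in KO and 271 to 351 CPM in WT, without overlap, and in VAT on HFD at 12.6 to 27.2 and 13.9 to 34.2 CPM, with overlap. Without KO 4, the log2 fold change of *Fam13a* was -2.79, the most negative of the values with 1 library left out, and it was -1.70 without KO 2. Fitted over all 32 male fat libraries, it was -2.00 with an adjusted p of 0.0461.

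Markers of the adipocyte were high in every library. The summed level of 20 adipocyte genes was 21106, 43097, 45238 and 54315 CPM in KO and 62270, 31074, 61706 and 41618 CPM in WT, with the lowest sum in KO 1. Adiponectin (*Adipoq*) ranged from 847 CPM in KO 1 to 2272 CPM in WT 3. Of these 20 genes, 0 passed the test. These markers mark white fat and not the depot, since the same sum in SAT of males on chow was 18582 to 53515 CPM. In bulk tissue, fewer cells of a type and less RNA per cell cannot be told apart.

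**Figure D1:**
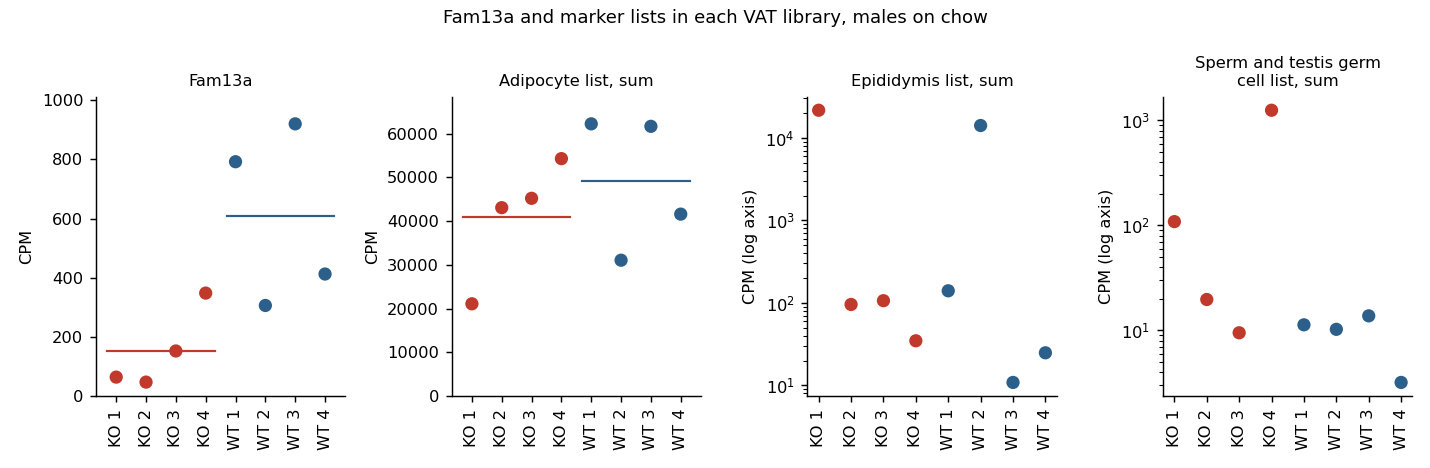
CPM of Fam13a and summed CPM of the adipocyte, epididymis and sperm lists in each of the 8 VAT libraries (KO in red, WT in blue, lines at the group means of 4 libraries in the left pair of panels, log axes in the right pair). KO 4 sits above WT 2 for Fam13a, the epididymis sum stands at 21606 CPM in KO 1 and 14109 CPM in WT 2, and the sperm sum stands at 1248 CPM in KO 4.

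Epididymal transcripts were found in quantity in 1 library of each genotype. The summed level of 54 epididymis genes was 21606 CPM in KO 1 and 14109 CPM in WT 2. In the other libraries the sum was 95.6 CPM in KO 2, 106 CPM in KO 3, 34.7 CPM in KO 4, 140 CPM in WT 1, 10.8 CPM in WT 3 and 24.8 CPM in WT 4. The list took 2.39% of all counts in KO 1 and 1.68% in WT 2, and at most 0.0139% in the other libraries. In the subcutaneous fat (SAT) of males, which does not touch the duct, the sum ranged from 1.35 to 5.28 CPM over 4 groups, and in VAT on high-fat diet (HFD) from 3.21 to 129.6 CPM.

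The leading epididymis genes of KO 1 and of WT 2 were different ones. *Crisp1*, a cysteine-rich secretory protein that coats sperm, was at 6811 CPM in KO 1 and 317 CPM in WT 2. The retinoic-acid-binding lipocalin *Lcn5* was at 2823 CPM in KO 1 and 10.4 CPM in WT 2, and the protease inhibitors *Spink8* and *Spint4* were at 2286 and 1581 CPM in KO 1 against 9.89 and 0.489 CPM in WT 2. In WT 2, by contrast, the secreted glutathione peroxidase *Gpx5* was at 2320 CPM, against 96.7 CPM in KO 1. The lipocalins *Lcn8* and *Lcn9*, known from the most proximal part of the duct, were at 1330 and 1186 CPM in WT 2 and at 0.853 and 0.111 CPM in KO 1. *Rnase10*, of the same proximal part, was at 1155 CPM in WT 2 and 0.223 CPM in KO 1, whereas its relative *Rnase9* was at 2.75 CPM in WT 2 and 1180 CPM in KO 1. The metalloprotease *Adam7* was abundant in both, with 2881 CPM in KO 1 and 1779 CPM in WT 2.

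A scan of all genes, made without reference to any list, gave the same libraries. A gene was counted as single-library where its CPM was at least 10 in 1 library and at least 20 times that in the next highest, with a floor of 0.1 CPM for the latter. By that rule 122 genes belonged to KO 1, 67 to WT 2, 173 to KO 4 and 0 to each of the other 5 libraries. In KO 1 they took 3.596% of the counts and 17 of 122 were on the epididymis list. Outside that list, the carboxylesterase *Ces5a* (1529 CPM), the serpin *Serpina1f* (1138 CPM) and *Spink11* (1013 CPM) were among the 10 highest. In WT 2 they took 2.11% of the counts and 16 of 67 were on the list, with *Gpx5* and the metalloprotease *Adam28* (1119 CPM) among the highest and *9530053A07Rik* at 2116 CPM outside it. The genes of KO 1 summed to 1.59% of their KO 1 level in WT 2, and those of WT 2 to 0.828% of their WT 2 level in KO 1.

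KO 4 held transcripts of another kind. Its 173 single-library genes took 0.378% of the counts, and 0 of them were on the epididymis list and 4 on a list of 15 sperm and testis germ cell genes. The highest were *Fsip2*, a fibrous sheath protein of the sperm tail, at 184 CPM, *Dnah8*, a dynein chain of sperm flagella, at 183 CPM, and *Ldhc*, the lactate dehydrogenase of germ cells, at 173 CPM. In the other 7 libraries, *Fsip2* reached at most 3.71 CPM, *Dnah8* 5.97 CPM and *Ldhc* 6.53 CPM, each of them in KO 1. The sperm list summed to 1248 CPM in KO 4, 109 CPM in KO 1, 19.7 CPM in KO 2, 9.49 CPM in KO 3 and between 3.19 and 13.8 CPM in WT. Protamines, the proteins that pack sperm DNA, were at 237 CPM (*Prm2*) and 155 CPM (*Prm1*) in KO 4. Markers of the vas deferens and seminal vesicle, on a list of 11 genes, were near 0 in all libraries, with the highest sum of 20.7 CPM in KO 1 and 5.76 CPM in WT 2.

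**Figure D2:**
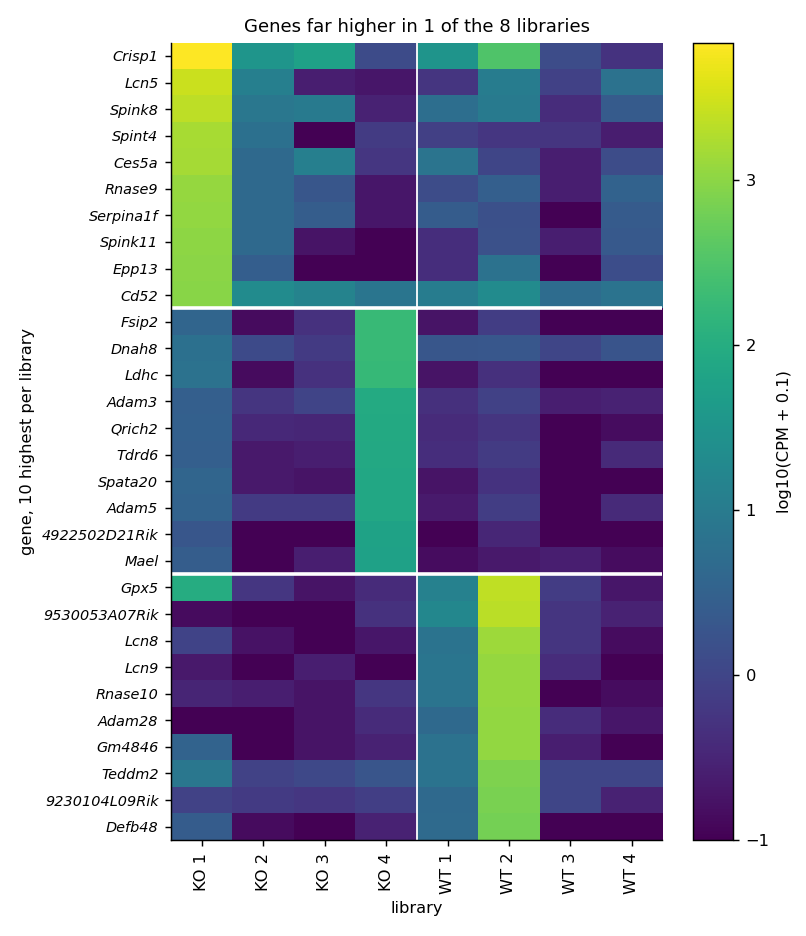
Levels, as log10 of CPM plus 0.1, of the 10 highest single-library genes of KO 1 (top), KO 4 (middle) and WT 2 (bottom) in each of the 8 libraries. Each block is bright in 1 column, and Crisp1 and Gpx5 also show in the other library with epididymal RNA, at 317 CPM in WT 2 and 96.7 CPM in KO 1.

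These transcripts did not pass as differences between genotypes, although the largest fitted fold change of all genes, 9.76 on the log2 scale, was that of *Spint4*. Of 54 epididymis genes 18 were tested, 0 passed, 7 were higher in KO at an unadjusted p under 0.05 and 1 was lower, and the highest value of each of these 8 was in KO 1 or WT 2. The shares of all tested genes at that p were 3.77% higher and 2.79% lower. Only genes abundant enough in several libraries entered the test, so the count is not one over all list genes. The median log2 fold change of the 18 genes was 2.18, and 14 of them had a higher fitted level in KO. Of the single-library genes, 52 of 122 in KO 1, 12 of 173 in KO 4 and 7 of 67 in WT 2 were tested.

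KO 1 also stood apart in cells of fat itself. Its sum over 12 endothelial genes was 575 CPM, against 982 to 1394 CPM in the other 7 libraries, and its adipocyte sum was the lowest. Whether epididymal tissue took the place of fat in this library was not tested. Sums over 5 red blood cell genes ranged from 379 to 1998 CPM in KO, the highest in KO 4, and from 653 to 1182 CPM in WT.

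Across 16211 tested genes, 2 passed the FDR of 10% used in the study, which is 0.0123% of them. Both were higher in KO and 0 were lower. At an unadjusted p under 0.05, 611 genes (3.77%) were higher and 453 (2.79%) lower in KO by edgeR's quasi-likelihood test, and the next adjusted p after the 2 called genes was 0.719. All 4 KO libraries lay above all 4 WT libraries for 326 genes (2.01%) and below them for 307 genes (1.89%). The median log2 fold change of all tested genes was 0.03. The number of calls depended on the libraries and on the test. Without KO 1, both genes were called, whereas leaving out any 1 of the other 7 libraries left 0 calls by the same test, with 653 to 1449 genes at an unadjusted p under 0.05. Without KO 1, KO 4 and WT 2 there were 15 calls, 13 higher and 2 lower in KO, with both genes among them, and DESeq2's Wald test called 90 genes with all libraries (51 higher and 39 lower).

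*Gm28438* was measured at 1.56, 2.87, 2.04 and 3.21 CPM in KO, from 42, 76, 26 and 33 reads. In the WT libraries it was at 0.0418, 0.0376, 0.153 and 0.0926 CPM, from 1, 1, 1 and 2 reads. Every KO library lay far above every WT library. The log2 fold change was 5.05 (SE 0.48), with an adjusted p of 0.0306. This gene shares all but 1 of its bases with *mt-Nd3*, so a read can be placed on it alone only where it covers that base or the flank, and its assignment is uncertain. *mt-Nd3* itself had 0 reads in all 4 KO libraries and 6, 3, 0 and 1 reads in the WT libraries.

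The same pair of genes was then read in all 62 libraries. *Gm28438* had 34 to 89 reads in SAT and 6 to 28 reads in liver of KO males on chow, and 35 to 61 reads in SAT and 31 to 42 reads in VAT of KO females on HFD. In every group of WT libraries it had 0 to 5 reads, and in the KO males on HFD 0 to 4 reads. *mt-Nd3* had 0 reads in the KO libraries of chow-fed males and of females, and up to 10 reads in the other groups. Among KO libraries the level thus differed between chow and HFD in males, in liver as in fat, and between females and males on HFD in fat. No libraries of females on chow are in the series, so whether diet makes a difference in females cannot be read. The cause of the low counts in KO males on HFD was not tested. C57BL/6 substrains are known to differ at a base of *mt-Nd3*. The substrain of each mouse is not given in the labels, and its part in these counts was not tested.

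**Figure D3:**
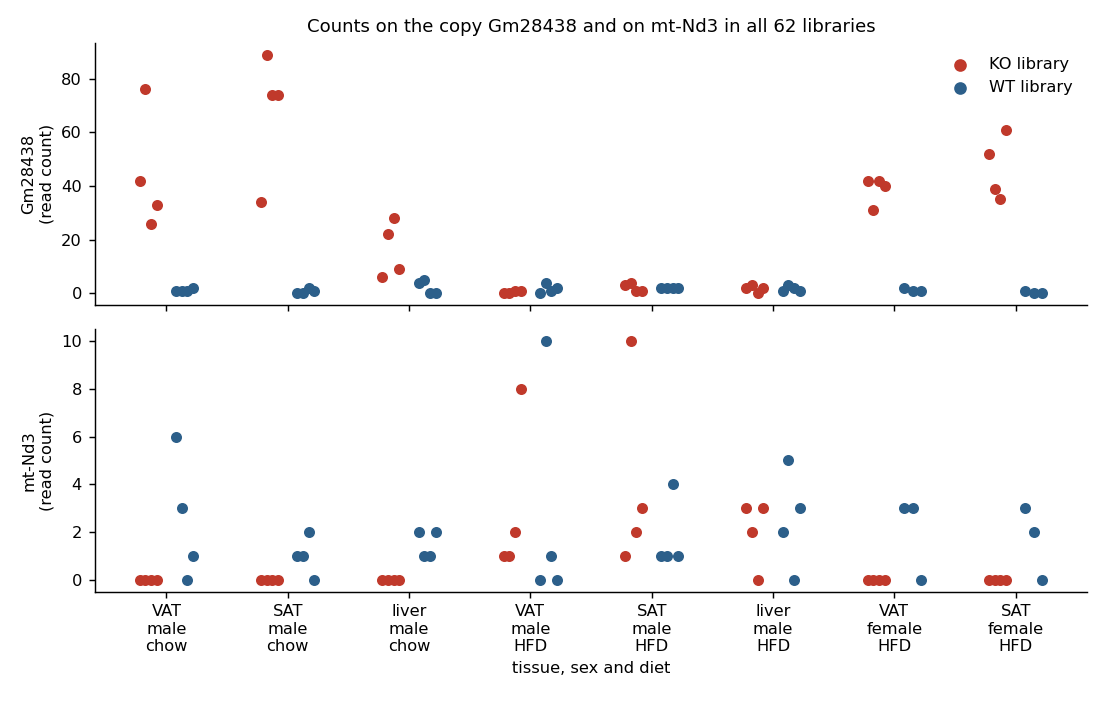
Reads counted on the pseudogene Gm28438 (top) and on mt-Nd3 (bottom) in each of the 62 libraries, grouped by tissue, sex and diet, with KO libraries in red and WT libraries in blue. The KO libraries of males on chow and of females hold 6 to 89 reads on Gm28438 and 0 on mt-Nd3, whereas the KO libraries of males on HFD hold 0 to 4 reads on Gm28438.

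*Rny3* was measured at 8.5, 8.56, 8.47 and 9.62 CPM in KO and at 1.004, 1.77, 1.38 and 1.85 CPM in WT. The KO libraries were close to each other and all above the WT libraries. The log2 fold change was 2.54 (SE 0.25), with an adjusted p of 0.0306. The other Y RNA, *Rny1*, was at 4.75, 3.43, 3.14 and 2.62 CPM in KO and at 0.293, 1.17, 0.458 and 1.30 CPM in WT. Its groups did not overlap either, but it did not pass the test (log2 fold change 2.07, SE 0.48, adjusted p 0.73).

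Of the 12 genes higher in KO with the smallest p-values, 7 were small noncoding RNAs, and all 12 had groups that did not overlap. Genes picked for small p-values tend to have separate groups, so the separation adds nothing to the p-values. Of all tested genes, 2.01% had every KO library above every WT library. *Snord15a*, whose sequence is given above, was at 4.30, 2.87, 4.47 and 3.59 CPM in KO and 0.460, 0.978, 0.764 and 1.34 CPM in WT (log2 fold change 2.08, SE 0.36). *Rpph1*, the RNA subunit of ribonuclease P that trims transfer RNAs, was at 1083, 925, 1045 and 1593 CPM in KO and 201, 386, 245 and 591 CPM in WT (log2 fold change 1.71, SE 0.36). *Rpph1* overlaps an exon of *Ccnb1ip1* on the same strand, so its reads and those of that gene cannot be told apart. The related ribozyme RNA *Rmrp*, which cuts ribosomal RNA precursors, was named here after its values were seen, like *Rny1* above. It was at 1075, 781, 844 and 1192 CPM in KO and 171, 332, 267 and 679 CPM in WT (log2 fold change 1.43, SE 0.40). Another entry of the name *Rmrp* overlaps it on the same strand, so reads of the pair cannot be told apart. The remaining small RNAs were the small nuclear RNAs *Gm25939* and *Gm26316*, the snoRNA *Gm22422* and the Cajal-body RNA *Gm25395*, with log2 fold changes between 2.03 and 2.51. Apart from *Rny3*, none of these RNAs passed the test, with adjusted p-values of 0.73. Where such an RNA has near-identical copies in the genome, the assignment of reads among the copies is uncertain, and copies were not examined here.

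Whole classes of small RNA were then counted, a choice made after the values had been seen. The table holds 1507 snoRNAs, of which 347 had a count in these 8 libraries and 65 were tested. Of the 65, 26 were higher in KO at an unadjusted p under 0.05 and 0 lower, against 3.77% and 2.79% of all genes. In 19 of the 65 all KO libraries lay above all WT libraries, against 2.01% of all genes, and the median log2 fold change was 0.81. The 65 had passed a filter on low counts that 4 high KO libraries alone can meet, so these shares do not stand for the class. With no filter beyond a count in these libraries, 28 of the 347 snoRNAs were higher and 2 lower, with a median of 0.19. Over all genes, that fit had 2237 of 31421 at an unadjusted p under 0.05 in either direction, with a median of 0.09. The share of snoRNAs in both directions together was thus near that of all genes. Of 11 tested Cajal-body RNAs, out of 24 with a count, 5 were higher and 0 lower, with a median of 0.64. Of 29 tested small nuclear RNAs, out of 384 with a count, 10 were higher and 0 lower, but their median was -0.03. The tested members of these classes had passed the same filter, so their shares do not stand for the classes either. Both tested ribozyme RNAs, *Rpph1* and *Rmrp*, were higher. The most abundant of the separated snoRNAs in KO 1, *Snord17*, was at 610, 214, 218 and 192 CPM in KO and 29.1, 80.0, 39.1 and 138 CPM in WT (log2 fold change 2.10, SE 0.58). Without KO 1, KO 4 and WT 2, 19 of 76 tested snoRNAs were higher and 0 lower. Apart from *Rny3*, none of these genes passed the test over all genes.

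The level of these RNAs in VAT of WT males on chow was lower than in the other fat of males. *Rny3* was at 7.40 to 33.1 CPM in the other 7 groups of VAT and SAT, KO on chow included, against 1.004 to 1.85 CPM here. *Rpph1* was at 925 to 2863 CPM in those groups, against 201 to 591 CPM here. The WT libraries of VAT on chow were thus the lowest of these 8 groups for both RNAs. Of the KO libraries on chow, 3 had less *Rpph1* than any library of the remaining 6 groups, where it was at 1184 CPM or more. The other groups were sequenced on other lanes, so lane and group cannot be told apart across them. Shares of nuclear ribosomal RNA did not separate the genotypes, with 1.5%, 0.0245%, 25.7% and 4.18% in the WT libraries. RNA quality, size selection and days to extraction were not used here, and their part in these values was not tested.

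**Figure D4:**
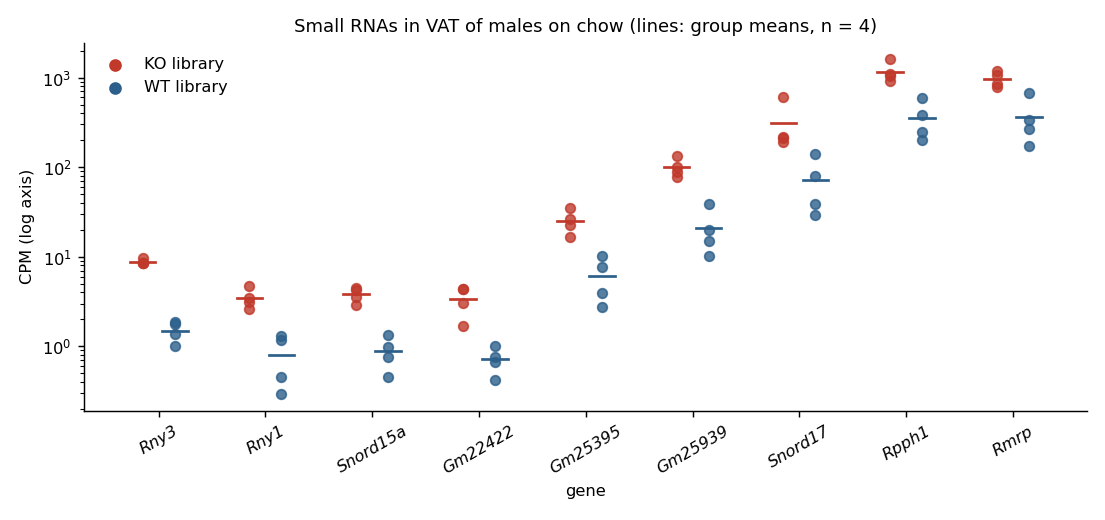
CPM of 9 small noncoding RNAs in the 4 KO (red) and 4 WT (blue) VAT libraries of males on chow, on a log axis, with lines at the group means. For each RNA all KO points lie above all WT points, for Rny3 at 8.47 to 9.62 against 1.004 to 1.85 CPM. The RNAs were picked for small p-values or after their values were seen, so the separation adds no evidence.

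Protein-coding genes among the 12 higher genes were led by *Lpar3*, a receptor for lysophosphatidic acid, at 0.816, 2.15, 1.72 and 1.26 CPM in KO and 0.418, 0.451, 0.306 and 0.370 CPM in WT (log2 fold change 1.89, SE 0.37). *Wfdc21*, a secreted protein with a WAP domain, was at 11.5, 47.1, 36.1 and 22.0 CPM in KO and 6.99, 8.58, 6.11 and 3.93 CPM in WT. Its log2 fold change was 2.18 (SE 0.44), and its KO values differed more from each other than the lowest of them did from WT. *Uqcr11*, a subunit of respiratory complex III, was at 43.6, 51.2, 46.2 and 46.7 CPM in KO and 33.3, 32.5, 29.6 and 34.2 CPM in WT (log2 fold change 0.53, SE 0.11). *Neil3*, a DNA glycosylase of base excision repair, was at 1.02 to 1.75 CPM in KO and 0.509 to 0.611 CPM in WT. These protein-coding genes did not pass the test, with adjusted p-values of 0.73.

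Among the 12 genes lower in KO with the smallest p-values the groups were also separate, but 0 passed, and the adjusted p of those named was 0.73. They too were picked by p-value, so the separation adds nothing to it, and 1.89% of all tested genes were separate in that direction. *Dpyd*, the first enzyme of pyrimidine breakdown, was at 30.7 to 37.9 CPM in KO and 49.7 to 66.6 CPM in WT (log2 fold change -0.83). *Mettl7a1*, a lipid-droplet-associated methyltransferase-like protein, was at 123 to 178 CPM in KO and 236 to 294 CPM in WT. The homeobox factor *Six4* was at 1.80 to 2.26 CPM in KO and 3.97 to 6.13 CPM in WT, and the receptor kinase *Kit* was at 7.47 to 10.8 CPM in KO and 14.02 to 19.1 CPM in WT. *Podn*, a proteoglycan of the extracellular matrix, was at 18.4, 22.8, 39.7 and 25.3 CPM in KO and 74.8, 48.9, 71.0 and 63.2 CPM in WT. Also among them were the DNA glycosylase *Neil2*, the noncoding *2900052L18Rik*, the ubiquitin ligase subunit *Fbxo31*, *Plppr3*, whose exons overlap *Prtn3* and *Ptbp1* on the other strand, and the clock genes *Per2* and *Nr1d1*, with log2 fold changes between -1.41 and -0.79.

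The circadian clock was the list with the most members lower at an unadjusted p under 0.05. In the molecular clock, CLOCK or NPAS2 with ARNTL switches on the period genes and *Nr1d1*, and their products feed back, the period proteins on CLOCK and *Nr1d1* on *Arntl*. Of 18 clock genes, all tested, 6 were lower and 1 higher at an unadjusted p under 0.05, against 2.79% and 3.77% of all genes, and 0 passed the FDR of 10%. *Per2* was at 10.4, 15.6, 13.1 and 13.02 CPM in KO and 23.1, 23.6, 22.6 and 20.8 CPM in WT (log2 fold change -0.79, SE 0.15). *Nr1d1*, a nuclear receptor that represses *Arntl*, was at 17.0, 19.4, 32.5 and 27.4 CPM in KO and 63.4, 40.3, 53.6 and 63.3 CPM in WT (log2 fold change -1.20, SE 0.24). Its exons overlap *Thra* on the other strand. For both genes every KO library lay below every WT library.

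Among the other clock genes, the following were named after their values were seen. *Per1* was at 20.1, 28.4, 27.0 and 28.6 CPM in KO and 54.7, 33.2, 59.7 and 51.3 CPM in WT (log2 fold change -0.93, SE 0.21). *Per3* was at 39.1, 27.1, 22.3 and 25.9 CPM in KO and 77.9, 68.7, 47.8 and 39.6 CPM in WT (log2 fold change -1.03, SE 0.26), so that KO 1 nearly met WT 4. *Tef*, an activator of the PAR leucine zipper family, had a log2 fold change of -0.53 with overlapping groups. Its relatives *Dbp* and *Hlf* had log2 fold changes of -0.20 and -0.27. Their groups overlapped too, and KO 1 held the highest level of each (8.01 and 15.9 CPM). Exons of *Dbp* overlap *Sphk2* on the other strand. *Npas2*, the partner of ARNTL, was on the other side, at 6.12, 6.30, 9.25 and 12.1 CPM in KO and 5.31, 4.85, 3.36 and 5.18 CPM in WT (log2 fold change 0.84, SE 0.28). The groups of *Arntl* and *Clock* overlapped, with log2 fold changes of 0.40 and 0.13. Those of *Cry1* and *Ciart* also overlapped, with log2 fold changes of 0.01 and 0.02. Of the 18 clock genes, 12 had a lower fitted level in KO and 6 a higher one. The summed level of the 18 genes was 502 to 568 CPM in KO and 627 to 746 CPM in WT.

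The median log2 fold change over the 18 clock genes was -0.30, but it was 0.02 without WT 2, which held the highest *Bhlhe40* (39.95 CPM) and *Bhlhe41* (30.9 CPM) of all libraries, and -0.66 without KO 1. With 2 surrogate variables it was -0.66, with 10 members lower and 2 higher. The number of lower members was 5 without WT 2 and 5 to 8 over all libraries left out in turn. Without KO 1, KO 4 and WT 2, 8 were lower and 2 higher. The hour at which each mouse was killed is not given in the sources used here, and its part in these values was not tested. In SAT of males on chow, *Per2* was at 10.9 to 19.8 CPM in KO and 7.86 to 12.3 CPM in WT, and *Nr1d1* at 21.01 to 59.9 and 26.6 to 46.5 CPM, so the groups overlapped there.

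**Figure D5:**
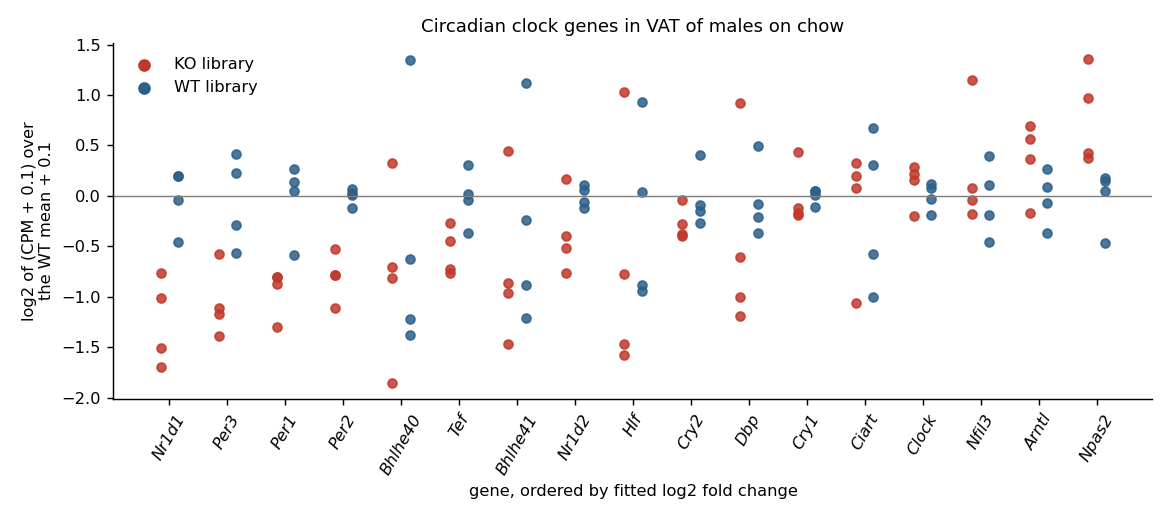
Of the 18 clock genes, 17 in VAT of males on chow, in the order of the fitted log2 fold change, as log2 of CPM plus 0.1 over the WT mean plus 0.1, with 1 point per KO (red) or WT (blue) library. Points of Nr1d1, Per3, Per1 and Per2 separate with KO below WT, and those of Npas2 separate with KO above WT.

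Promoters of 2 clock genes that separated the groups are printed because they hold known motifs of clock factors, from 250 bases before to 50 bases after the start site (RefSeq, GRCm38.p6). Capitals mark CACGTG, the E-box bound by CLOCK and ARNTL, in the promoter of *Per1* (plus strand, chr11:69098699-69098998), and TTATGTAA, the D-box bound by *Tef* and its relatives, at 2 places in that of *Per3* (minus strand, chr4:151044616-151044915).
Per1: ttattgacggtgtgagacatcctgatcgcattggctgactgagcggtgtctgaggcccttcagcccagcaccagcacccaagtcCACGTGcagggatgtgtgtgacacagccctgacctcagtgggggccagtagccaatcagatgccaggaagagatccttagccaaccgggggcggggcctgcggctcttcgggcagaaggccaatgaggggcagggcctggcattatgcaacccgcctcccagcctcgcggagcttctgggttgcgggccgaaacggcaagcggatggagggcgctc
Per3: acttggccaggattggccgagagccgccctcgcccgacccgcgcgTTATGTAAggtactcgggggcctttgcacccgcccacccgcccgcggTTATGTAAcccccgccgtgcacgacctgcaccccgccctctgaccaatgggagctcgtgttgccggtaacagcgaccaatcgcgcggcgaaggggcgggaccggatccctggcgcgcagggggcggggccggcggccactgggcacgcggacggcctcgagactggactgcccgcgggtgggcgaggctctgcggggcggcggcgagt

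CACGTG, which reads the same on both strands, was in 5 of the 15 clock genes with a promoter in that table (*Bhlhe41*, *Ciart*, *Cry1*, *Per1* and *Tef*) and in 8.09% of all 27025 genes with one. TTATGTAA, searched on both strands, was in 1 of the 15, *Per3*, and in 1.11% of those genes. *Per2*, *Nr1d1* and *Npas2*, which also separated the groups, were not among the genes with either motif. Among the 5 genes with CACGTG, the groups of *Bhlhe41*, *Ciart*, *Cry1* and *Tef* overlapped. No position is shared by the motifs, whose letters do not overlap, and a match describes the letters of this window alone.

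Genes of the respiratory chain, which passes electrons to oxygen in mitochondria, did not pass the test, and their summed level overlapped, at 3195 to 3999.6 CPM in KO and 2902 to 3812 CPM in WT. Of 38 nuclear-encoded subunits, all tested, 8 were higher and 0 lower at an unadjusted p under 0.05, against 3.77% and 2.79% of all genes, and 0 passed the FDR of 10%. Fitted levels were higher in KO for 26 of them and lower for 12, with a median log2 fold change of 0.10 that was 0.016 without KO 4. *Uqcrq* of complex III was at 18.7, 23.9, 24.2 and 27.8 CPM in KO and 15.1, 13.1, 15.4 and 18.7 CPM in WT (log2 fold change 0.60, SE 0.17). *Cox6c* of complex IV and, chosen after its values were seen, *Ndufa1* of complex I had log2 fold changes of 0.65 and 0.74, with their highest values in KO 1 (154 and 53.4 CPM). The number of higher members was 3 when KO 2, WT 1 or WT 3 was left out, and without KO 1, KO 4 and WT 2 there were 5 higher and 3 lower. The Krebs cycle list had 1 of 24 members higher at an unadjusted p under 0.05, the cytosolic isocitrate dehydrogenase *Idh1* (81.9 to 160 CPM in KO and 70.2 to 104 CPM in WT), and fatty acid oxidation had 0 of 22 in either direction. The Krebs cycle had 1 higher and 5 lower without KO 1, KO 4 and WT 2, and fatty acid oxidation 1 higher and 4 lower. The smallest p-values of the latter were those of *Eci2* and *Acadvl*, enzymes of the oxidation of unsaturated and of very long chains, with log2 fold changes of -0.25 and -0.45.

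Genes of lipid storage did not pass the test in either direction. Of 25 genes of fatty acid and triglyceride synthesis, 1 was lower and 0 higher at an unadjusted p under 0.05, with a median log2 fold change of -0.20. Over all tested genes, 2.79% were lower and 3.77% higher at that p, so 1 lower member in this list or the adipocyte list is near that share. Without KO 1, KO 4 and WT 2 there were 6 lower and 1 higher, with a median of -0.45. With 1 library left out, the number lower was 0 without KO 2, KO 3, WT 1 or WT 3 and at most 4, without WT 2, and the median lay between 0.0025 without WT 1 and -0.44 without WT 4. The gene lower with all libraries, *Acacb*, makes the malonyl-CoA that holds back mitochondrial fatty acid import. It was at 58.9, 56.5, 127 and 318 CPM in KO and 617, 211, 539 and 373 CPM in WT (log2 fold change -1.64, SE 0.60), so that KO 4 lay above WT 2 as for *Fam13a*. Of 20 adipocyte genes 1 was lower, *Pck1*, which makes glycerol phosphate for triglyceride, at 735, 901, 2334 and 1682 CPM in KO and 3962, 2006, 4024 and 2927 CPM in WT. The median of the adipocyte list was -0.37, between -0.17 without KO 1 and -0.60 without KO 4, which left 3 members lower, and 0 were lower without KO 2, WT 1 or WT 3. In the adipocyte list 5 genes were lower and 1 higher without KO 1, KO 4 and WT 2, with a median of -0.51. Leptin (*Lep*) was at 303, 1585, 621 and 118 CPM in KO and 236 to 313 CPM in WT, and its spread in KO exceeded the difference of the means. The adipogenic transcription factors had 0 of 19 in either direction, with a median of -0.21 and log2 fold changes of -0.80 for *Klf15* and -0.55 for *Ebf2*, the members with the smallest p-values. The adipocyte sum was lowest in KO 1 and WT 2, and the sum over the synthesis genes was lowest in KO 1 (14143 CPM) and WT 4 (17125 CPM), and the part of these libraries' cell makeup in the values was not tested.

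Lists of signalling and hormones had few members past an unadjusted p of 0.05 and none past the FDR. Over all tested genes, 3.77% were higher and 2.79% lower at that p, so 1 member in a list of 20 to 32 genes is near those shares. Of 25 insulin and glucose uptake genes 1 was higher and 1 lower at an unadjusted p under 0.05. They were the hexokinase *Hk1*, at 115 CPM in KO 4 and 23.5 to 36.2 CPM in the other KO libraries against 22.2 to 24 CPM in WT, and the insulin receptor adaptor *Grb14*, at 5.15 to 10.9 CPM in KO and 10.7 to 13.97 CPM in WT. Without KO 1, KO 4 and WT 2, 8 genes of this list were lower and 0 higher, and 4 were lower without KO 4 or WT 2 alone. Without KO 4, the log2 fold change of *Hk1* was 0.38 in place of 1.14. Of 32 Wnt and beta-catenin genes 1 was higher, the ligand *Wnt10b* (0.943 to 2.35 CPM in KO, 0.544 to 0.926 CPM in WT), and 1 lower, the target *Myc* (4.22 to 6.32 CPM in KO, 6.997 to 9.21 CPM in WT), with a median of 0.01. Of 20 adipokine and expansion genes 1 was lower, the vessel growth factor *Vegfa*, at 46.6, 86.1, 150 and 124 CPM in KO and 230, 148, 336 and 193 CPM in WT (log2 fold change -1.16, SE 0.38). With the same 3 libraries left out, 6 of these 20 were higher and 3 lower, and of the Wnt genes 4 were higher and 1 lower. Of 15 genes of NAD salvage 0 were higher and 2 lower, *Nmnat3* (log2 fold change -0.71) and *Naprt* (-0.48), and *Naprt* overlaps *Eef1d* on the same strand. Of 9 brown and beige fat genes 2 were higher and 1 lower, with the muscle-type cytochrome oxidase subunit *Cox7a1* at 0.705 to 2.11 CPM in KO and 0.458 to 0.628 CPM in WT, and the coactivator *Ppargc1a* at 2.49 to 7.68 CPM in KO and 7.54 to 14.8 CPM in WT.

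Lymphocyte markers were measured at low levels, with lower fitted values in KO for 10 of the 13 tested genes and higher ones for 3. Of 13 tested lymphocyte genes 5 were lower and 0 higher at an unadjusted p under 0.05, against 2.79% and 3.77% of all genes, with a median log2 fold change of -0.46, and 0 passed the FDR of 10%. The B-cell receptor component *Cd79a* was at 0.408, 0.867, 0.549 and 0.972 CPM in KO and 1.84, 1.204, 2.29 and 1.43 CPM in WT. The B-cell surface genes *Ms4a1* and *Cd22* were also among the 5. The B-cell genes *Cd79b* and *Cr2* were not, with log2 fold changes of -0.37 and -0.46 and overlapping groups. The summed level of the list was 15.8 to 24.4 CPM in KO and 24.4 to 36.2 CPM in WT. Without WT 1, 2 members were lower in place of 5, and without KO 1, KO 4 and WT 2, 3 of 14 were lower. Of 14 macrophage genes 1 was lower, the engulfment receptor *Mertk* (log2 fold change -0.30), and of 23 inflammation genes 0 were higher or lower. The smallest p-values of the inflammation list were those of *Stat3*, a transducer of cytokine signals, and the chemokine *Cxcl10*, with log2 fold changes of -0.59 and 0.67.

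The remaining lists of cells and matrix held few members past an unadjusted p of 0.05 and none past the FDR. The shares of all tested genes at that p were 3.77% higher and 2.79% lower. Progenitor and fibroblast genes had 1 of 17 higher, the microfibril protein *Fbn1*, at 326, 529, 945 and 269 CPM in KO and 192, 315, 236 and 314 CPM in WT, and extracellular matrix genes had the same 1 of 25. With KO 1, KO 4 and WT 2 left out, 8 of the 17 and 13 of the 25 were higher and 0 lower, whereas without any 1 library at most 3 of the 25 were higher. Mesothelium (16 tested), endothelium (12), smooth muscle (8) and red blood cell genes (5) had 0 in either direction. With the same 3 libraries left out, smooth muscle had 2 higher and 2 lower and red blood cell genes 3 lower. The smallest p-values among mesothelial genes were those of *Msln* and *Wt1* (log2 fold changes of 0.84 and -0.58), and among endothelial genes those of *Kdr*, a receptor for *Vegfa*, and the junction gene *Cldn5* (-0.30 and 0.33). Skeletal muscle had 1 of 2 tested genes lower, *Actn3*, below 3 CPM in every library. Of 12 acinar pancreas genes 1 was tested, the elastase *Cela1*, at 9.02 to 23.3 CPM in KO and 4.97 to 8.19 CPM in WT. Stress and immediate early genes had 1 of 22 lower, *Zfp36*, which speeds the decay of cytokine mRNAs, at 13.7 to 21.9 CPM in KO and 22.2 to 40.2 CPM in WT. The sperm list had 2 of 4 tested genes higher, *Prm2* and *Odf1*, each with its highest levels in KO 4 and KO 1. Exons of *Cox6c*, *Hk1*, *Fbn1*, *Zfp36*, *Agpat2*, *Slc7a10*, *Tef*, *Arntl*, *Rmrp* and *Cd22* overlap a gene on the other strand. The strand setting of the counting is not given in the sources used here, so the reads of such pairs cannot be told apart.

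Of 6 genes that the text of the study names, 0 passed the test here. The study had these libraries among its data when it named them, so their count is no independent evidence. It fitted SAT and VAT of males on both diets together, so its values and these are not like for like. Its printed fold changes put *Klf14* and *Celsr2* above and *Agpat2*, *Slc7a10* and *Fgfr2* below no change. The fitted direction here was the same for *Slc7a10* and the opposite for *Klf14*, *Celsr2*, *Agpat2* and *Fgfr2*. *Agpat2*, an enzyme of triglyceride synthesis, was at 83.1 to 211 CPM in KO and 45.3 to 130 CPM in WT (log2 fold change 0.67, SE 0.41), and the transcription factor *Klf14* was at 1.94 to 8.41 CPM in KO and 6.58 to 9.75 CPM in WT (log2 fold change -0.75, SE 0.42). *Slc7a10*, an amino acid transporter of white adipocytes, had a log2 fold change of -0.16 that turned positive without KO 1, WT 1 or WT 3. *Fgfr2*, a receptor for fibroblast growth factors, had one of 0.28 that turned to -0.49 without KO 1, where it was at 45.5 CPM. *Fgfr2* overlaps *Ctbp2* on the same strand. The adhesion receptor *Celsr2* was at 3.37 to 15.5 CPM in KO and 5.55 to 24.4 CPM in WT, and *Vegfa* is given above.

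Whether the KO effect in VAT differed by diet was tested as an interaction over the 16 male VAT libraries. Of 17330 genes 1 passed the FDR of 10% (0.00577%), and it was *Gm28438*, with a log2 fold change of 5.04 on chow and -1.48 on HFD, a difference of 6.52 (SE 0.90, adjusted p 0.0591 by edgeR's quasi-likelihood test). It was not called in 13 of the 16 fits that left out 1 library. Chow and HFD libraries were sequenced on different lanes, so lane and diet cannot be told apart. The next 4 were *Blk*, a kinase of B cells, and *Pgm5*, *Gdf10* and *Syde2*, with differences of -2.56, -1.41, -1.51 and -1.26 and an adjusted p of 0.379. For *Blk*, the log2 fold change was -0.76 on chow and 1.80 on HFD.

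Whether it differed between depots on chow was tested over 8 VAT and 8 SAT libraries. Of 17442 genes 2 passed (0.0115%). *Rny3* had a log2 fold change of 2.54 in VAT and 0.22 in SAT, where its levels of 7.32 to 14.3 CPM in KO and 8.01 to 10.1 CPM in WT overlapped, a difference of 2.31 (SE 0.33, adjusted p 0.0787). *Snord15a* had one of 2.08 in VAT and -1.40 in SAT, a difference of 3.47 (SE 0.53, adjusted p 0.0881). In SAT it was at 6.19, 2.31, 7.31 and 8.82 CPM in KO and 21.4, 15.7, 14 and 13.8 CPM in WT, so KO lay below WT there and above it in VAT. The next 3, *Gm25939*, *Gm24339* and *AA986860*, had an adjusted p of 0.287. VAT and SAT were each on a lane that held both genotypes, and the VAT libraries here are those of the diet comparison as well. Without SAT KO 4 the number of genes called was 3370, it was 3 without VAT WT 4, and it was 0 or 1 without any 1 of the other 14 libraries, so the count depends on single libraries.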

How the data were processed

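RNA of snap-frozen tissue was extracted with the RNeasy Lipid kit and sequenced from TruSeq Stranded libraries. The deposited table holds raw counts of reads per gene, which the authors made with STAR (2.5.3a on mm10 in the submitters' processing notes). Which strand column was kept, and whether libraries were poly(A)-selected, are not given in the sources used here. Of 48795 genes, 48435 (99.3%) were named from GENCODE M21. Columns were mapped to groups by their labels, and 0 columns were of unknown samples. Depth was 8662690 to 24931889 counts per library.

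Counts were filtered with filterByExpr, normalized by TMM and fitted with edgeR 4.0.16 (R 4.3.3) by its quasi-likelihood test, with Benjamini-Hochberg adjustment and an FDR of 10%, the tool and threshold of the study. RNA quality, days to extraction and the hidden factors of the study's model were not used here. Both interactions were contrasts in fits of 16 libraries. Alternatives used DESeq2 1.42.0, limma 3.58.1 and sva 3.50.0, other filters, factors and sets of libraries. The fit was checked on simulated data.

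The genes and the 30 lists were chosen with earlier results of these data known. Named were *Fam13a*, the 12 genes higher and 12 lower with the smallest p, the 2 members of each list with the smallest p, the most abundant epididymis and single-library genes, the 5 genes with the smallest p in each interaction and genes that the study names, and other members of the lists and RNA classes were named after their values were seen. Some genes that these rules name are not reported here.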

Additional observations from a re-analysis of the deposited data

Results flagged for a closer look

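Of 80 values checked in groups of 4 libraries, those given here lay far from the other 3 libraries of their group by Dixon's gap test, which chance alone would meet in about 5% of groups. The epididymis sum stood apart in KO 1 (21606 CPM) and WT 2 (14109 CPM), and the sum of vas deferens and seminal vesicle genes in the same libraries (20.7 and 5.76 CPM). The sperm sum stood apart in KO 4 (1248 CPM), as did the red blood cell sum (1998 CPM). The endothelial sum of KO 1 was low (575 CPM). Among single genes, *Rny3* in KO 4 (9.62 CPM) and *Plppr3* in KO 2 (4.26 CPM) were the highest of their groups, although each stayed on its own side of the other genotype. Nuclear ribosomal RNA took 25.7% of the counts in WT 3.

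In VAT of males, the KO effect differed between chow and HFD for *Gm28438*, by 6.52 on the log2 scale. Lane and diet cannot be told apart there, and KO females on HFD held 31 to 42 reads of this gene in VAT. On chow, the KO effect differed between depots for *Rny3*, by 2.31, and *Snord15a*, by 3.47. Each difference passed an interaction test across all genes, but was not called in 13 of the 16 fits that left out 1 library. In data outside the comparison, *Gm28438* reached 89 reads in a KO library of SAT on chow, above every WT library. The sperm sum reached 4348 CPM in 1 WT library of VAT on HFD, more than in KO 4.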

How the results depend on the processing

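No paired analysis was possible because the labels give no replicate numbers that link the groups. The number of genes called between KO and WT was 2 under an FDR of 5%, other scaling factors, robust or bias-corrected dispersion, all 16 VAT libraries, an epididymis covariate, and library sizes without epididymis or ribosomal RNA genes. It was 90 with DESeq2, 1 with limma-voom, 39 with the likelihood ratio test, 184 with all 32 male fat libraries and 4 with 2 surrogate variables. It was 0 with no filter, 0 with at least 10 counts in every library, which removes both called genes, and 0 without the 2 libraries with most epididymis transcripts, where 2237, 802 and 1239 genes had an unadjusted p under 0.05. Without the 3 libraries with epididymis or sperm transcripts, a choice made after seeing the data, it was 15. With 1 library left out it ranged from 0 to 2. Apart from the test itself and the fewer genes or libraries, the cause was not tested.

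The diet interaction gave 102 calls with DESeq2 and 0 with limma-voom, no filter, an FDR of 5% or without those 2 or 3 libraries (812 genes at an unadjusted p under 0.05 with limma-voom). With 1 library left out it gave 0 to 2. The depot interaction gave 226 with DESeq2 and 0 under the same other settings (2751 with limma-voom at an unadjusted p under 0.05), and 0 to 3370 with 1 library left out. *Fam13a* passed with all 32 male fat libraries (-2.00, adjusted p 0.0461), and was -2.79 to -1.70 with 1 library left out, passing in none.

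Of 2113 fold changes of 85 genes under these settings, 2105 kept their direction. The exceptions were *Slc7a10*, at 0.13 with 2 surrogate variables and -0.48 to 0.23 with 1 library left out (0.045 without KO 1, 0.23 without WT 1 and 0.021 without WT 3), and *Fgfr2*, at -0.26 with 2 surrogate variables, -0.11 and -0.50 without 2 or 3 libraries, and -0.49 (without KO 1) to 0.66 with 1 left out. Depth limits genes such as *Gm28438*, where WT libraries hold 1 or 2 reads.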
